A study of Mus musculus with 2 samples.

Results

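The 4 loci described here are the 3 genes of the miR-7 family, Mir7b, Mir7-1 and Mir7-2, and Mir671. They were chosen by name as the microRNA genes of the network around 2 long noncoding RNAs, Cdr1as and Cyrano, and make up 4 of the 1973 miRNA rows of the deposited tables. MicroRNA libraries had been made from the total RNA of 2 single forebrains, taken on postnatal day 0 from B6NCrl mice, called pup 1 (replicate 1) and pup 3 (replicate 2). Both animals carry the same donor entry, no sex was collected, and the labels name no genotype, treatment or second condition. The results are therefore levels, their spread between the pups (mean ± SD, n = 2) and differences between these libraries. The forebrain was taken whole, so a lower level can mean fewer cells of a type or less RNA per cell, and these cannot be told apart. A level is also a share of the counts of its library, so it depends on the counts of the other loci too.

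MicroRNAs are short RNAs cut from both arms of a hairpin, and they repress messenger RNAs that pair with their seed, bases 2 to 8 from the 5′ end. miR-7 is made by neurons and neuroendocrine cells. In the brain, Cdr1as, a circular RNA, carries many miR-7 sites, and Cyrano, a linear RNA, holds 1 long site that triggers the decay of miR-7. miR-671 can direct the cutting of Cdr1as.

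The mature sequences decide which reads the deposited counts can hold, and are shown for that reason. They come from RefSeq on GRCm38.p6, where all 4 loci were found, with the seed in capitals and U for T.
miR-7a-5p, of both Mir7-1 and Mir7-2: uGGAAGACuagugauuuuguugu
miR-7b-5p, of Mir7b: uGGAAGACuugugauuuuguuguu
miR-7a-1-3p, of Mir7-1: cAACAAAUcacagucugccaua
miR-7a-2-3p, of Mir7-2: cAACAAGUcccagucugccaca
miR-7b-3p, of Mir7b: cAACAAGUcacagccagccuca
miR-671-5p, of Mir671: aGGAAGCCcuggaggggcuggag
miR-671-3p, of Mir671: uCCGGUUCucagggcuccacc

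The 5p arms of the 3 miR-7 loci share the seed GGAAGAC, and no other locus among the 1005 hairpins of the table has it. Counted from the 5′ end, miR-7b-5p differs from miR-7a-5p by A10U and by 1 added base at its 3′ end. The seed of miR-671-5p differs from that of miR-7 by A7C. On the 3p side, miR-7a-2-3p and miR-7b-3p share a seed, while miR-7a-1-3p differs from miR-7a-2-3p by A7G within the seed and by A10C and U21C outside it.

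Mir7-1 and Mir7-2 produce the same 23-nt miR-7a-5p, and a run of 24 nt that holds it is common to both hairpins: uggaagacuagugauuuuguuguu. A read that lies wholly within this run fits both loci, and the authors' tables keep reads that map to several places in a row of their own, at no locus. By these sequences, the counts of Mir7-1 and Mir7-2 can hold reads of their 3p arms but not a miR-7a-5p read that lies within the run. The longest run Mir7b shares with either of them is 14 nt, and its longest run with any hairpin outside the family is 12 nt. Mir671 shares at most 11 nt with a hairpin outside the 4. By exact match, full-length reads of both arms of Mir7b and Mir671 can thus be told from the other hairpins. Over the length of miR-7a-5p, miR-7b-5p differs from it by 1 base, so its placement also depends on the mismatches allowed, which are not given. The level of miR-7a relative to miR-7b is not given by these counts. Matches elsewhere in the genome were not searched. The map of the hairpins shows the run over the 5p arms.

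**Figure D1:**
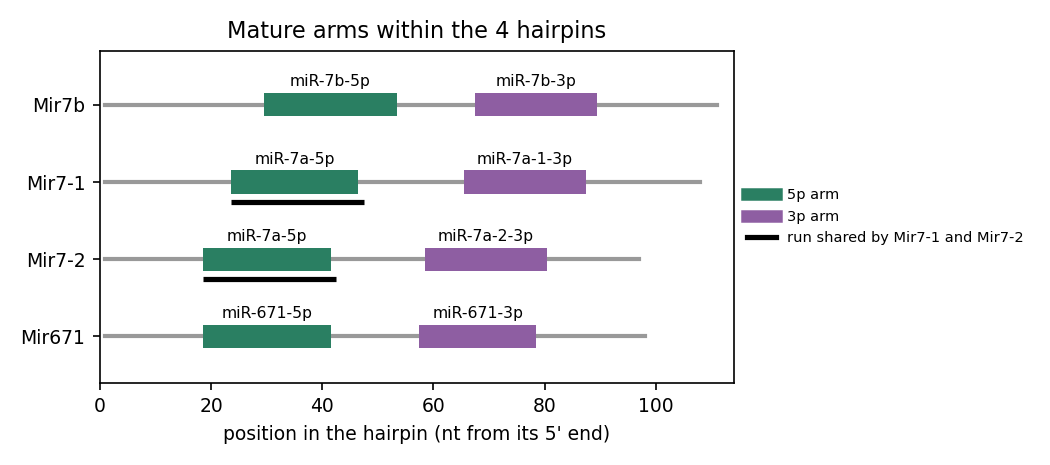
Position of the mature arms (green, 5p; purple, 3p) along each hairpin, in nt from its 5′ end. The black bars mark the 24-nt run common to Mir7-1 and Mir7-2, which covers their whole 5p arm and none of the 3p arm.

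The 4 genes lie on 4 chromosomes of GRCm38, in different settings. Mir7b (ENSMUSG00000065491.1, chr17:56242988-56243098, plus strand) overlaps no annotated gene, and the noncoding gene AC026385.1 lies 182 bases from it on the same strand. Mir7-1 (ENSMUSG00000065434.1, chr13:58392779-58392886, minus strand) lies in an intron of Hnrnpk, which encodes an RNA-binding protein. Mir7-2 (ENSMUSG00000065609.1, chr7:78888277-78888373, plus strand) overlaps no annotated gene, the nearest being Aen at 7480 bases. Mir671 (ENSMUSG00000076387.1, chr5:24592114-24592211, plus strand) lies wholly within the coding part (24591069 to 24592361) of an exon of Chpf2, and on the other strand within an exon of a retained-intron transcript of Smarcd3. None of the 4 loci had a count on the strand opposite the gene in either pup.

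Pairing with the 2 target RNAs was read from the annotated transcripts as a description of sequence, since no target RNA was measured. RefSeq lists Cdr1as as a synonym of Cdr1os, the gene GENCODE names C230004F18Rik. Its transcript C230004F18Rik-206 (3354 nt) held the miR-7 seed match GTCTTCC 123 times, searched on the transcript's strand. All 123 lay in exon 6 (chrX:61183248-61186174), at a median spacing of 18 nt. Among the first 3354 nt of 19643 other transcripts, 26.5% held the match at least once and none held as many. Over whole transcripts of other genes the highest count was 11, in Ttn-203 and Hrnr-202. The messenger RNA of Cdr1, which lies on the other strand of this locus, held 0 matches and its reverse complement 79.

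The site of miR-671-5p with the most pairs in the same transcript lies in exon 6 as well, at chrX:61186029-61186051 on the plus strand. It is shown 5′ to 3′ with paired bases in capitals.
miR-671-5p site in Cdr1os: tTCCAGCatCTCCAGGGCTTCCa
It pairs with 19 of the 23 bases, leaving miRNA positions 1, 15, 16 and 23 without a Watson-Crick partner. Sites with at least as many ungapped pairs were found in transcripts of 33 other genes, so this count of pairs is not particular to Cdr1os. These genes include Smarcd3, whose exon lies opposite the Mir671 hairpin and so pairs with miR-671-5p by its position.

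Cyrano, listed by GENCODE as 1700020I14Rik, held the seed match GTCTTCC 2 times in its 8300-nt transcript 1700020I14Rik-202. Of the first 8300 nt of 1407 other transcripts, 48.7% held it at least once and 15.9% held it at least 2 times. The long site lies at chr2:119602136-119602161 on the plus strand and is shown with the bases paired to miR-7b-5p in capitals.
miR-7 site in Cyrano: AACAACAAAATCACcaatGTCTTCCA
Bases 1 to 8 and 11 to 24 of miR-7b-5p pair with it, 22 bases in all. For miR-7a-5p, bases 1 to 8 and 11 to 23 pair, 21 in all. Position 10, the one at which A10U sets miR-7b-5p apart, lies in the internal loop, where 2 miRNA bases face 4 target bases. The same pair of miR-7a runs, separated by up to 6 bases, was found in no gene other than Cyrano among 141767 transcripts.

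**Figure D2:**
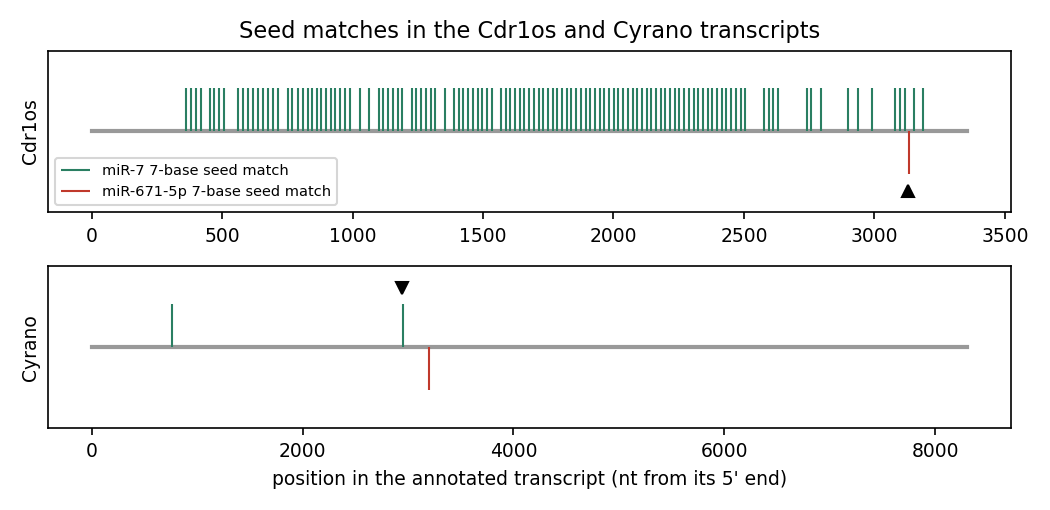
Matches to the 7-base seed of miR-7 (green, upward) and of miR-671-5p (red, downward) along the Cdr1os transcript of 3354 nt and the Cyrano transcript of 8300 nt, by position in nt. Triangles mark the 2 long sites; the 123 green matches crowd the Cdr1os transcript, against 2 in Cyrano.

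The libraries held 2742746 counts on the strand of a miRNA gene in pup 1 and 2427066 in pup 3, and levels are given per 1000000 of these counts (CPM). The row for reads with several mapping places held 42.2% and 44.1% of the sequenced reads. All 15 loci of the neuron-enriched list had counts in both pups, from Mir124a-3 (3 and 2 counts) to Mir137 (77520 and 56571). That list summed to 50480 CPM in pup 1 and 43964 CPM in pup 3, against 235.5 and 267.8 CPM for the 6 Hox loci of hindbrain and spinal cord, of which Mir196a-1 was at 0 in both pups. The choroid plexus loci summed to 2938 and 2280 CPM, and the multiciliated loci of ependyma and choroid plexus to 8197 and 4927 CPM. Reads that fit several loci are in none of these counts or sums. A low count at a locus named as a numbered copy, such as Mir124a-3 or Mir196a-1, therefore does not show a low level of its mature miRNA. Intervals below are exact Clopper-Pearson intervals at 95% and cover counting error only, as reads copied by PCR are not independent molecules.

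By locus counts, Mir7b was the highest of the 4. It had 8112 counts in pup 1 (2958 CPM, interval 2894 to 3023) and 4430 in pup 3 (1825 CPM, 1772 to 1880), which gives 2391 ± 801 CPM. It stood at rank 61 in pup 1 and 74 in pup 3 among the 1973 rows. Mir7b was high in pup 1 and low in pup 3, and this gap was the widest of the 4 loci.

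Mir7-1 and Mir7-2 stood at nearly the same level. Mir7-1 had 1815 counts in pup 1 (662 CPM, interval 632 to 693) and 1269 in pup 3 (523 CPM, 494 to 552), or 592 ± 98.2 CPM. Mir7-2 had 1775 counts in pup 1 (647 CPM, 617 to 678) and 1319 in pup 3 (543 CPM, 515 to 574), or 595 ± 73.3 CPM. In each pup the intervals of the 2 copies overlapped, and their order turned between the pups.

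Mir671 was the lowest. It had 851 counts in pup 1 (310 CPM, interval 290 to 332) and 566 in pup 3 (233 CPM, 214 to 253), or 272 ± 54.5 CPM. It ranked 157 and 156, and it was above the median of the 400 loci with at least 10 summed counts, 113 CPM. By locus counts, Mir7b lay above both miR-7a copies and these above Mir671, with no overlap of the pups at either step, while Mir7-1 and Mir7-2 could not be ordered. The counts of the miR-7a copies leave out miR-7a-5p reads that map to both, while those of Mir7b and Mir671 can hold both arms. The order is therefore not one of mature miRNAs.

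The 3 miR-7 loci together held 0.427% of the counts in pup 1 and 0.289% in pup 3. With Mir671 the 4 loci held 0.385% ± 0.103. For scale, Mir99a alone held 26.9%. These shares leave out every miR-7a-5p read that maps to both copies.

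**Figure D3:**
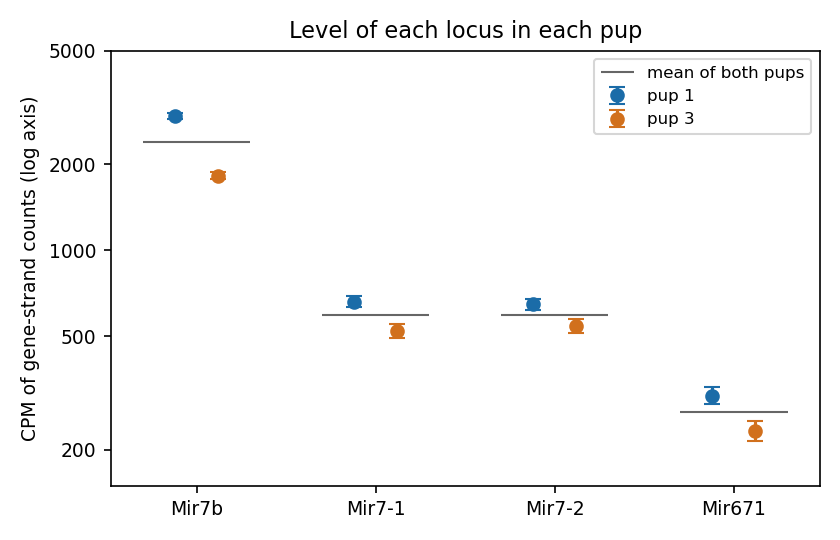
CPM of gene-strand counts (log axis) of each locus in pup 1 (blue) and pup 3 (orange), with exact 95% intervals, and the mean of both as a grey line. Pup 1 lies above pup 3 at all 4 loci relative to library totals, by most at Mir7b, and the 2 miR-7a copies lie at the same height.

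Relative to library totals, all 4 loci were lower in pup 3. Mir7b was the one that also passed as lower when DESeq2 size factors set the scale. Each side is 1 library, so the test compares these libraries, not conditions. A two-sided Fisher's exact test was run on the 400 loci with at least 10 summed counts, and p-values were adjusted over all 400 by the Benjamini-Hochberg method. It called 56.5% of them, 46.2% as lower in pup 3 and 10.2% as higher, and the 4 of 4 lower loci are read against that 46.2%. Mir7b had a log2 ratio of pup 3 over pup 1 of −0.70 (Fisher's exact test, adjusted p = 6.27e-152), or 1.62-fold more in pup 1. The ratios were −0.34 for Mir7-1 (adjusted p = 3.19e-10), −0.25 for Mir7-2 (3.78e-06) and −0.41 for Mir671 (3.59e-07) on the scale of log2(CPM + 1).

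The tested loci as a whole had a median log2 ratio of −0.31. Relative to it, Mir7b lay at −0.38, Mir671 at −0.10, Mir7-1 at −0.025 and Mir7-2 at 0.063. Of the 400 tested loci, 141 lay farther from the median than Mir7b, against 317 for Mir671, 338 for Mir7-2 and 376 for Mir7-1. Mir7b was thus in the outer part of the spread, not at its edge, and the miR-7a copies were near its middle.

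With DESeq2 size factors, which place the typical locus near 0, an exact binomial test called 45.2% of loci, 20.8% as lower in pup 3 and 24.5% as higher. Of the 4 loci it called 1, Mir7b, at −0.38 (adjusted p = 6.86e-46). Mir7-1 (−0.026, adjusted p = 0.775), Mir7-2 (0.061, 0.393) and Mir671 (−0.10, 0.357) did not pass. With edgeR's TMM scaling the same test called 46% of loci and again, of the 4, Mir7b alone. With a test that carries the spread between the libraries (edgeR's exact test at its common dispersion, a biological coefficient of variation of 0.251), none of the 4 passed (Mir7b unadjusted p = 0.18, adjusted p = 0.954). That test called 0 of 400 loci, with 19 at an unadjusted p under 0.05, where Fisher's exact test called 226.

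**Figure D4:**
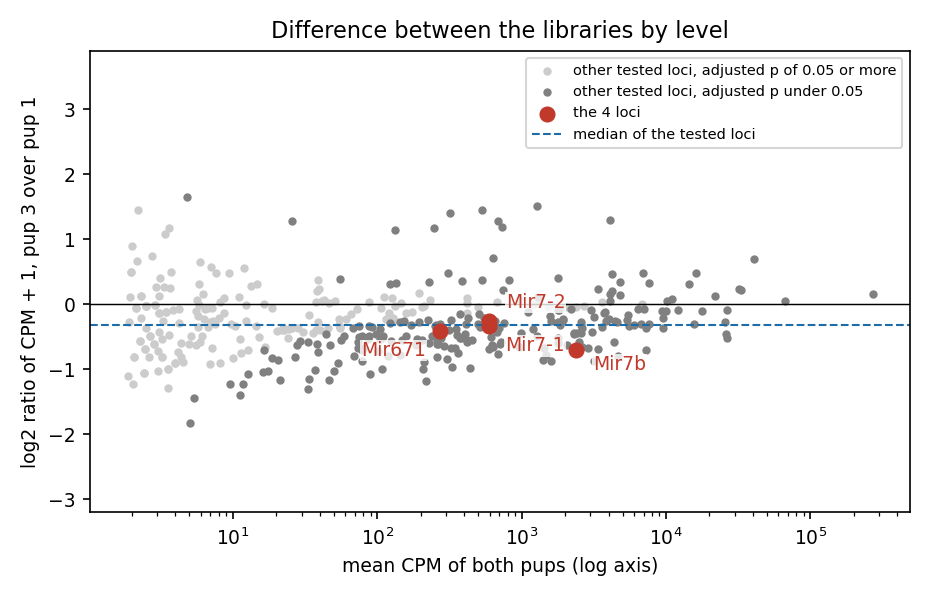
Log2 ratio of CPM + 1 in pup 3 over pup 1 against the mean CPM (log axis) for the 400 tested loci; dark grey points passed Fisher's exact test after adjustment, and the dashed line is the median of all tested loci, −0.31. Mir7-1, Mir7-2 and Mir671 (red) lie close to the dashed line and Mir7b lies below it.

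Ratios of 2 loci within a library need no scale between libraries. Mir7b had 4.47 counts per count of Mir7-1 in pup 1 (exact interval 4.25 to 4.71) and 3.49 in pup 3 (3.28 to 3.72). Against Mir7-2 it had 4.57 (4.34 to 4.81) and 3.36 (3.16 to 3.57), and against Mir671 9.53 (8.88 to 10.2) and 7.83 (7.17 to 8.56). In all 3 pairs with Mir7b the intervals of the pups did not overlap, and the ratio was lower in pup 3. Of the 6 pairs, these 3 passed Fisher's exact test (adjusted over the 6 pairs), with adjusted p = 6.89e-09, 4.43e-13 and 0.00125. All 3 share the counts of Mir7b, so they are not separate results. Pairs of other loci were not tested, so no background share of pairs is known. Of single loci, Fisher's exact test called 56.5%.

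The pairs without Mir7b did not pass. Mir7-1 had 1.02 counts per count of Mir7-2 in pup 1 (0.957 to 1.09) and 0.962 in pup 3 (0.89 to 1.04), with adjusted p = 0.295 by the same exact test. Mir7-1 over Mir671 was 2.13 (1.96 to 2.32) and 2.24 (2.03 to 2.48), with exact adjusted p = 0.453. Mir7-2 over Mir671 was 2.09 (1.92 to 2.27) and 2.33 (2.11 to 2.58), with exact adjusted p = 0.136. Over both pups, Mir7b was 3.98 ± 0.692 times Mir7-1 and the copies stood at 0.992 ± 0.0427 to each other. These are ratios of locus counts, with the shared miR-7a-5p in neither copy.

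**Figure D5:**
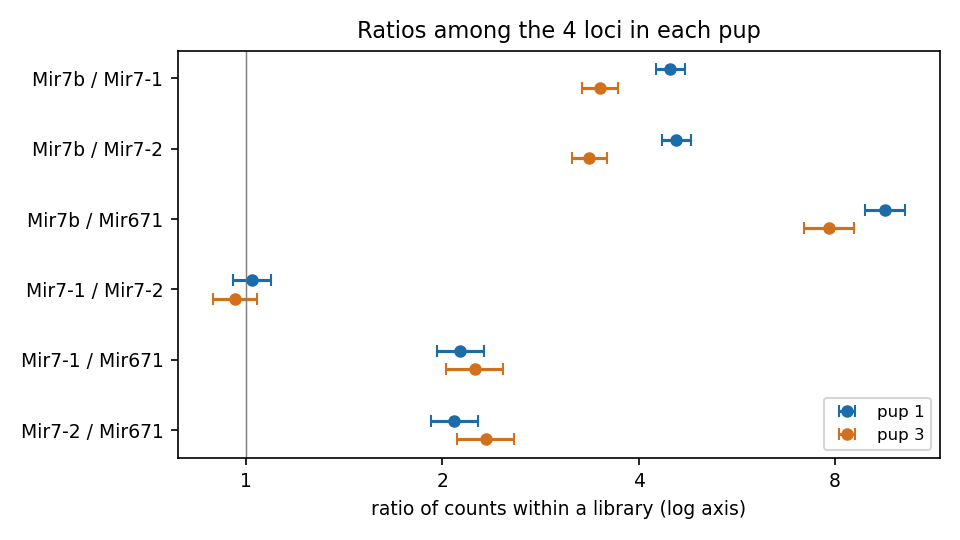
Ratio of counts of 2 loci within each library (log axis) for all 6 pairs, pup 1 in blue and pup 3 in orange, with exact 95% intervals. The intervals of the pups are apart in the 3 pairs that hold Mir7b and overlap in the other 3.

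The marker lists are read against all 400 tested loci, of which 10.2% were higher and 46.2% lower in pup 3 with library totals, and 24.5% and 20.8% with size factors. The lists were chosen with earlier results of these data known, so their shares are a description only. Mir375, a miRNA of pituitary and other neuroendocrine cells, had 971 and 723 counts (354 and 298 CPM). Its log2 ratio was −0.25 (adjusted Fisher's exact p = 0.000999), and with size factors it was 0.064 (exact binomial test, adjusted p = 0.525). Of the 7 epithelium loci, 5 were higher in pup 3 and none lower (6 and 0 with size factors), and the list summed to 4929 CPM in pup 1 and 10570 CPM in pup 3. The 5 all belong to the miR-200 family: Mir200a, Mir200b, Mir429, Mir141 and Mir200c. With library totals Mir203 was at 0.00035 and Mir205 at −0.38, and neither passed. With size factors Mir203 passed at 0.31 and Mir205 did not, at −0.082. Of the 5 multiciliated loci, 3 were lower and none higher on both scales, a share near the background with library totals and above it with size factors. In the neuron-enriched list 13 loci could be tested, and 3 of them rose and 7 fell in pup 3. The share that fell was near the background and the share that rose was above it. Their median log2 ratio was −0.48 against −0.31 over all tested loci. With size factors 4 rose and 5 fell, with a median of −0.17, and the share that fell was above the background. Fewer loci made up the other lists: with library totals, 1 of 2 choroid plexus loci, 2 of 3 oligodendrocyte loci, 1 of 4 white blood cell loci and 1 of 3 red blood cell loci were lower and none higher. Of the 3 blood vessel loci 1 was higher and 2 lower, and of 4 tested Hox loci 2 were higher and none lower. With size factors, 2 white blood cell loci were higher and 1 lower, and 2 blood vessel loci were higher and none lower. The Hox loci again had 2 higher and none lower, 1 oligodendrocyte locus was lower, and no choroid plexus or red blood cell locus passed. The direction of these short lists thus depends on the scale. Among the neuron-enriched loci that passed with library totals, ratios ran from −0.87 at Mir153 (11181 and 5430 counts) to 0.37 at Mir9-3 (1281 and 1466 counts). Over all 400 tested loci, 66 had a lower ratio than Mir7b. The part of these cell types in the gap at Mir7b was not tested.

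The loci nearest to each of the 4 in level were found by the distance of log2(CPM + 1) over the 2 libraries, which weighs mostly the level, as 2 points carry little of a pattern. Nearest to Mir7b were Mir541 (8175 and 4832 counts, distance 0.126), Mir379 (7375 and 4753, 0.171) and Mir361 (7281 and 4725, 0.181). Nearest to Mir7-1 were Mir340 (1910 and 1349 counts), Mir138-2 and Mir501, at 0.115 to 0.164. Mir340 and Mir501 were also the nearest of Mir7-2, followed by Mir320. Nearest to Mir671 were Mir331 (818 and 588 counts, 0.079), Mir1264 and Mir148b. The choice of neighbours by level in both pups also fixes that their ratios lie near that of the locus.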

How the data were processed

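The values are raw counts as the authors deposited them, 1 table per library, on assembly mm10 (per the labels) and annotation M4 (per the text deposited with the files). Which aligner and counter were used is not given in the sources used here. Counts on the strand of the gene were analysed. The 4 rows without a gene (unmapped, multimapping, no feature, ambiguous; the gene-strand total is 41.2% of reads in pup 1 and 41.3% in pup 3) stayed out of totals. Names and positions came from GENCODE M21 on GRCm38, the assembly that mm10 is, and 1894 of 1973 rows matched by identifier. Multimapping reads belong to no locus, and ligation favours some sequences, so ratios of a locus between libraries are firmer than levels of different loci. The 2 libraries are not copies of each other: over 331 loci with at least 10 counts in each, chi-square was 209 per degree of freedom. A count of 0 allows up to 1.09 CPM in pup 1 and 1.24 CPM in pup 3 (3 counts).

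Fisher's exact test set each locus with 10 or more summed counts against all other counts of its library, with Benjamini-Hochberg adjustment and a threshold of 0.05. Its p-values carry counting error only, with no spread between animals. Log2 ratios used a pseudocount of 1 CPM. A quasi-likelihood fit was not possible, as there is nothing to contrast. Named loci are the 4 genes, the 3 loci nearest to each in level, hosts, targets and the members of marker lists. The 4 genes and the lists were chosen with earlier results of these data known. Fisher's exact test was checked on simulated data that held counting error but no spread between libraries. The check therefore cannot show how the test behaves on libraries that differ as these 2 do. Scaling used DESeq2 1.42.0 and edgeR 4.0.16 in R 4.3.3. Tests used scipy 1.17.1, tables pandas 2.3.3 with numpy 2.4.6, and plots matplotlib 3.10.9, in Python 3.11.15. Alternatives were the unstranded column, other totals, size factors, filters, pseudocounts, a test with a common dispersion, and leaving out a replicate. One result on a further list of miRNAs is left out and not reported here.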

Additional observations from a re-analysis of the deposited data

How the results depend on the processing

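Of 36 alternatives for the differences between the pups, 34 kept the direction and 26 the side of the threshold. Filters, pseudocounts and the edgeR exact test kept the scale of library totals, so they could hardly change a direction. Pseudocounts do not enter the test at all. The tally is therefore no measure of stability. Mir7-2 turned to 0.061 with DESeq2 size factors and 0.032 with TMM scaling. With these 2 scalings, Mir7-1 was −0.026 and −0.056 and Mir671 −0.10 and −0.13, no longer past the threshold. Mir7b stayed past it on every scale, from −0.70 to −0.38. With the edgeR exact test at a common dispersion, the ratios stayed at −0.70 (Mir7b), −0.34 (Mir7-1), −0.25 (Mir7-2) and −0.41 (Mir671), none passed, and 0 loci were called in place of 226. Its dispersion was estimated from the difference between the same 2 libraries, so its lack of calls says nothing about stability. Levels depend on the total. Without Mir99a, Mir7b, Mir7-1, Mir7-2 and Mir671 had 3259, 809, 814 and 371 CPM, and with all sequenced reads as the total 986, 244, 245 and 112. Leaving out a replicate gives 1825 to 2958 CPM for Mir7b, 523 to 662 for Mir7-1, 543 to 647 for Mir7-2 and 233 to 310 for Mir671. No paired analysis was possible because there is 1 group of 2 animals. Depth did not limit these loci, each with at least 566 counts, but 2 animals leave their spread poorly known.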
